A study of Mus musculus with 6 samples.

Results

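Complement and coagulation proteins belong to proteolytic cascades of plasma, and hepatocytes make most of their components. The 36 genes described here were chosen by name, 16 of complement and 20 of coagulation and fibrinolysis, and all 36 were found among the 22851 genes of the deposited expression matrix. All livers came from high-fat-fed male mice of the inbred strain C57BL/6J. Libraries 1, 2 and 4 of the vehicle group served as controls. Libraries 1, 3 and 4 of the treated group came from mice given ONX-0914, an inhibitor of the immunoproteasome subunit PSMB8, under the skin on alternate days over 6 weeks, 10 mg/kg each time. The design text gives 2 animals per group against 3 libraries in each, so p-values measure the spread between libraries, which may be partly technical. The study concerns fatty liver, and the question here is whether complement and coagulation transcripts moved alike between treated and vehicle livers.

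Complement is started by antibody through the classical pathway, by sugars on microbes through mannose-binding lectins and their proteases, or by slow turnover of C3 in the alternative pathway. All routes cleave C3 and end in a pore built from the terminal components C5b to C9. Coagulation runs through a chain of serine proteases, several of which need vitamin K, to thrombin, which turns fibrinogen into fibrin, and antithrombin, heparin cofactor II and the protein C system hold it back while plasmin dissolves the clot. Fibrinogen and several complement genes are also known as acute-phase genes of hepatocytes. In bulk liver RNA, fewer cells of a type and less RNA per cell cannot be told apart.

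The libraries differed by more than these genes. Deposited FPKM values (reads or fragments per kilobase of gene, relative to the size of the library) summed to between 993264 and 1247789 per library, and relative depths read from low values lay between 0.868 and 1.30 of vehicle 1. The search for these depths covered only a narrow range around that of vehicle 1, so a larger difference could not have been found. No read totals were used here, so absolute depth is unknown. Over the 10743 genes tested, the median log2 deviation from the vehicle mean was -0.74, -0.38 and -0.79 in ONX-0914 1, 3 and 4. ONX-0914 3 thus lay between the vehicle libraries and the other treated ones. As deposited, the fit (limma on log2(FPKM + 1), called at a Benjamini-Hochberg adjusted p under 0.05) placed 2.56% of genes higher and 43.5% lower with ONX-0914, with a median log2 fold change of -0.64. Values are therefore also given scaled by median ratio, a division of each library by its median ratio to the geometric means of genes above 0 in every library. That moved the median gene to 0.00, and 14.3% of genes were higher and 13.7% lower. Transcript length also moved with treatment: the median log2 fold change was 0.13 in the shortest of 10 equal groups of genes and -0.84 in the longest. With each library's length trend removed, 9.48% of genes were higher and 11.8% lower.

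Complement genes that changed mostly rose, while as deposited more coagulation genes fell than rose, a direction that was lost scaled by median ratio, where no coagulation gene fell. As deposited, 4 of 16 complement genes rose (Mbl1, C9, Cfb and Serping1), 1 fell (Masp1) and 11 were not called, against the background of 2.56% higher and 43.5% lower. Among the 20 coagulation genes 3 rose (Fgb, Fgg and F10), 8 fell (F9, F5, Serpind1, Pros1, Serpinf2, Klkb1, F13b and F7) and 9 were not called. The share of coagulation genes that fell was thus close to the background share. After scaling, 12 complement genes rose and 1 fell, and 11 coagulation genes rose, beside 14.3% of all genes higher and 13.7% lower. Removing the length trend gave 11 risers and 1 faller in complement, while 9.48% of all genes were higher and 11.8% lower. In coagulation that removal gave 8 risers and again no faller. That removal also takes out the overall shift of a library. The median deviation over all genes became 0.008, 0.018 and -0.0003 in ONX-0914 1, 3 and 4, so it is not a result of length alone. Without ONX-0914 3, as deposited, 5 complement genes rose and 2 fell, and 4 coagulation genes rose and 9 fell. In that fit 740 of all 10743 genes rose and 6514 fell, so most genes were lower. Leaving out any 1 vehicle library left 2 complement and 1 coagulation gene risen and 5 coagulation genes fallen. Without ONX-0914 1 the risers likewise numbered 2 and 1, and without ONX-0914 4 the coagulation fallers numbered 5. Over all genes, the fits without 1 library called from 92 to 740 higher and from 2590 to 6514 lower.

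Overlap between the groups was counted as well. In 5 complement and 5 coagulation genes every treated library lay above every vehicle library, as in 4.93% of all genes tested. In 2 complement and 8 coagulation genes every treated library lay below, as in 53.5% of all genes.

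**Figure D1:**
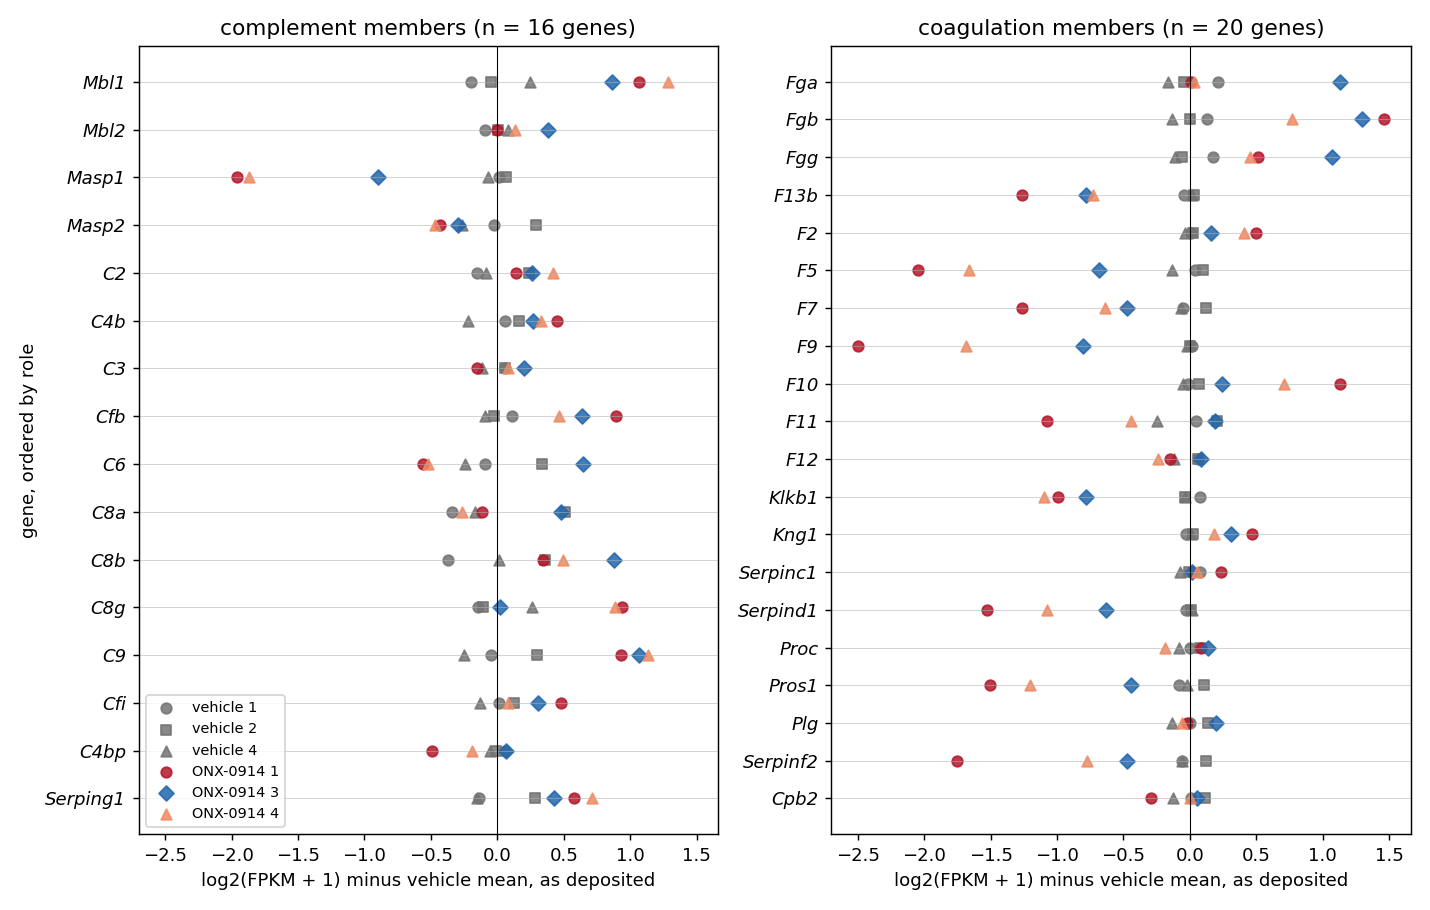
Each point is 1 library: log2(FPKM + 1) minus the mean of the 3 vehicle libraries (x axis, as deposited) for each member (y axis), grey for vehicle and coloured for ONX-0914. In F9, F5, Serpind1, Pros1 and Serpinf2 the 3 treated libraries lie left of all vehicle libraries with ONX-0914 3 nearest to them, while Fgb, Mbl1 and C9 lie to the right.

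Promoters are shown for the 2 members with the highest and the 2 with the lowest scaled fold change among those in the sequence table, as examples of genes that moved in opposite directions. Of 36 members 27 matched the RefSeq table of promoters (GRCm38.p6, 250 bases before to 50 after the start of the gene). Capitals mark matches, on either strand, to the letters TTGCNNAA (C/EBP, a family of liver activators) or TTCNNNGAA (STAT, the factors downstream of interleukin 6). The windows lie at chr3:83049814-83050113 on the minus strand for Fgb, at chr14:41151206-41151505 on the plus strand for Mbl1, at chrX:59999214-59999513 on the plus strand for F9 and at chr1:164151585-164151884 on the plus strand for F5.
Fgb: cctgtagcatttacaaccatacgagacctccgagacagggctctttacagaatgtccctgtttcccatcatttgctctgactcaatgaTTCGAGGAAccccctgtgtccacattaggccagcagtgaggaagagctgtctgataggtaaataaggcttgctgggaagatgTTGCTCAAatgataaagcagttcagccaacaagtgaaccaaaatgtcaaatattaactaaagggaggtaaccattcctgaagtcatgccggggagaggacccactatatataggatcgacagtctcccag
Mbl1: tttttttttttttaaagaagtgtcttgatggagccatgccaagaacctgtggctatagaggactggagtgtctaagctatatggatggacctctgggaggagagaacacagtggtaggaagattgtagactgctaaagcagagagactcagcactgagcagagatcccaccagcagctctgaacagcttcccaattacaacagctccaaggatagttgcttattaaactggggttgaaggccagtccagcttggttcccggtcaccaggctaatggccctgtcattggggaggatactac
F9: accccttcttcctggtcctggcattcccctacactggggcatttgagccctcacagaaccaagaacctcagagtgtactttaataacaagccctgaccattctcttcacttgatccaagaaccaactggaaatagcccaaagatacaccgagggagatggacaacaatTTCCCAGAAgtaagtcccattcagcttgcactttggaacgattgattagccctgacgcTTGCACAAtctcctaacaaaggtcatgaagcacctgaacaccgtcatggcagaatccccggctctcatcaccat
F5: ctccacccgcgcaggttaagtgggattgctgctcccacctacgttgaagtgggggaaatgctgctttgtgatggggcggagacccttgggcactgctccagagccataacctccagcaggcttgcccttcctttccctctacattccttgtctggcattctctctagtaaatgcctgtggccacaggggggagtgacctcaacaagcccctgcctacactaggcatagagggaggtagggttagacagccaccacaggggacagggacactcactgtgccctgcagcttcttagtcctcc

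Fgb (risen as deposited and scaled) and F9 (fallen as deposited, not called scaled) each held 1 match to the C/EBP and 1 to the STAT letters, and Mbl1 and F5 held none. Over the 27 windows, 9 (33.3%) held the C/EBP letters, against 10.8% of all 32544 windows in the table, and 6 (22.2%) the STAT letters, against 8.33%. The letters GTTAATNAT (HNF1, a liver factor) were in 3 windows, those of Fga, F13b and C4bp (11.1%, against 0.81% of all windows). The letters CAAAGTCCA (HNF4) were in none, against 0.48% of all. C/EBP letters occurred in 2 of the 5 risers with a window and in 2 of the 8 fallers as deposited. A match describes letters in this window and is not a binding site.

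The gap between the branches was 0.37 as deposited and larger with the length trend removed. The median log2 fold change was 0.28 over the complement genes and -0.09 over the coagulation genes as deposited, a difference of 0.37. Median-ratio scaling gave medians of 1.09 and 0.73 and a difference of again 0.37. A factor common to a library hardly moves this difference by construction, so the match is no separate result. After removal of the length trend the difference was 0.62. Library by library, the complement median exceeded the coagulation median by 0.46, 0.27 and 0.44 in the treated libraries 1, 3 and 4. The vehicle libraries 1, 2 and 4 gave -0.08, 0.10 and -0.04. The treated libraries did not overlap the vehicle libraries in this difference, which is a description of these lists and has no test. Deviations are from the mean of the same vehicle libraries, so the vehicle values are centred by construction. Lack of overlap was also common gene by gene as deposited, with 4.93% of all genes above and 53.5% below. The difference did not extend to the lists of other complement and other coagulation genes described below. Their medians were -0.73 and -0.53 as deposited and 0.09 and 0.15 scaled by median ratio, the reverse order. With the length trend removed they were 0.03 and -0.06.

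**Figure D2:**
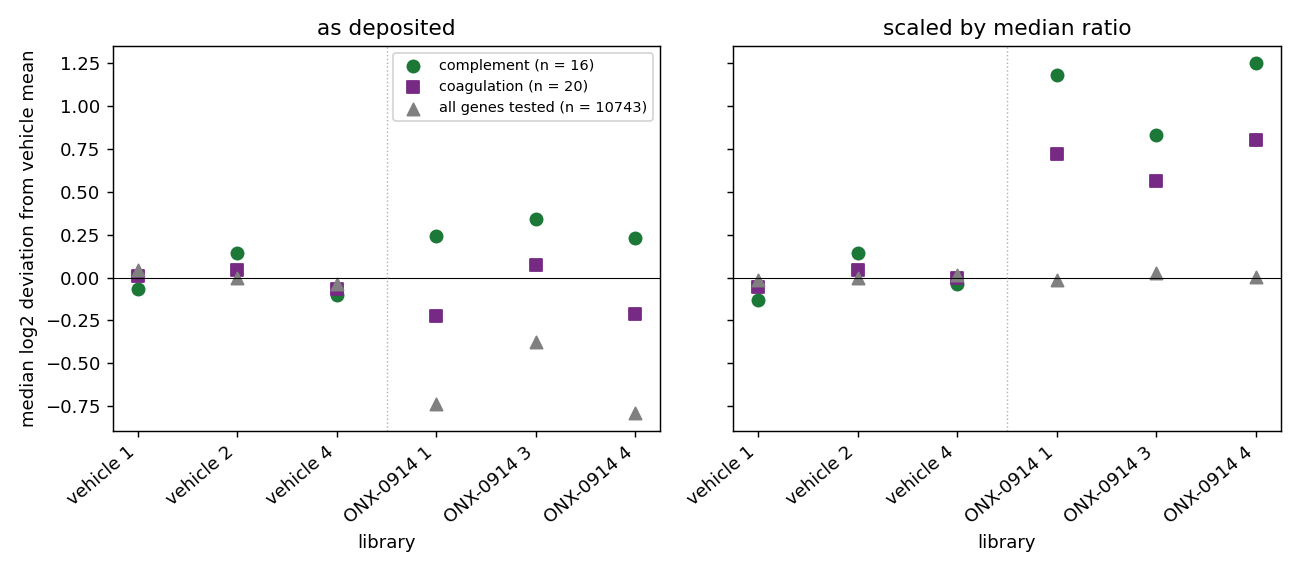
Median log2 deviation from the vehicle mean (y axis) of complement genes, coagulation genes and all genes tested in each library (x axis), as deposited on the left and scaled by median ratio on the right. The complement median lies above the coagulation median in the 3 treated libraries in both panels, by 0.27 to 0.46, while the height of both moves with the scaling. A factor common to a library moves both medians nearly alike, so the gap matches between the panels by construction.

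Values below follow the order vehicle 1, 2 and 4 and ONX-0914 1, 3 and 4, and p-values come from the same limma fit. Among the genes of the lectin and classical pathways Mbl1 rose and Masp1 fell, and their paralogs Mbl2 and Masp2 were not called as deposited. Mbl1, which encodes mannose-binding lectin A and lies on chromosome 14 from 41151458 to 41159601 of GRCm38, stood at 360, 401 and 492 FPKM with vehicle and at 866, 754 and 1010 FPKM with ONX-0914. All treated libraries were above all vehicle libraries. Mbl1 thus rose by 1.07 on the log2 scale (SE 0.21, adjusted p = 0.00451), and by 1.89 in the scaled values. Its paralog Mbl2, mannose-binding lectin C, was at 517, 553 and 582 FPKM with vehicle and at 549, 719 and 604 FPKM with ONX-0914. The groups overlapped (0.17, adjusted p = 0.465), but Mbl2 passed scaled by median ratio (0.99, adjusted p = 0.0186).

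Masp1, the lectin-associated serine protease on chromosome 16 (23449417 to 23520815), was the complement gene that fell. Its level was 25.4, 26.4 and 23.9 FPKM with vehicle and 5.73, 13.1 and 6.17 FPKM with ONX-0914, so that ONX-0914 3 kept more of it than the other treated libraries. Its fold change on the log2 scale was -1.58 (SE 0.31, adjusted p = 0.00478) as deposited and -0.82 (adjusted p = 0.0333) in the scaled values. It was lower in each of the 6 scalings tried and in each fit without 1 library. The locus overlaps Rtp4 on the opposite strand, and the sources used here give no strand setting for the counting. Masp2, the protease that cleaves C4 and C2, was not called, at -0.40 as deposited and 0.41 scaled by median ratio (adjusted p = 0.131 and 0.194).

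C2 and C4b supply the C3 convertase of these pathways. C4b was at 335, 361 and 276 FPKM with vehicle and at 439, 389 and 404 FPKM with ONX-0914, without overlap (log2 fold change 0.35, adjusted p = 0.15). C2 was at 59.7, 78.7 and 62.6 FPKM and at 73.3, 80.03 and 89.3 FPKM, with overlap (0.27, adjusted p = 0.279). Both were higher scaled by median ratio, at 1.17 and 1.08 (adjusted p = 0.0167 and 0.0189). C4b has a near-identical copy, C4a, and reads of the copies may have been split.

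In the alternative pathway the convertase gene rose and C3 itself did not. Cfb, complement factor B on chromosome 17 (34856374 to 34862518), measured 675, 613 and 586 FPKM with vehicle and 1157, 969 and 861 FPKM with ONX-0914. Its lowest treated library exceeded its highest vehicle library. Its log2 change was 0.66 (SE 0.19, adjusted p = 0.0213), and 1.48 scaled by median ratio. Without 1 library, Cfb passed only when ONX-0914 3 or 4 was left out, and its adjusted p ranged from 0.0114 to 0.0862. It did not pass after quantile normalization (0.55, adjusted p = 0.0663). Cfb and C2 are neighbours, both covered by the annotated gene Gm20547 on the same strand, so reads between them are uncertain.

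C3, the component on which all routes meet, was at 1329, 1330 and 1176 FPKM with vehicle and at 1151, 1465 and 1346 FPKM with ONX-0914. The groups overlapped and the log2 fold change was 0.04 (SE 0.19, adjusted p = 0.866). It passed scaled by median ratio, at 0.86 (adjusted p = 0.0312), and not after quantile normalization, at -0.19 (adjusted p = 0.531), so its direction depended on the scaling.

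Of the 5 terminal pathway genes C9 rose. C9, the subunit that polymerises into the membrane pore (chromosome 15, 6445327 to 6498751), went from 419, 532 and 363 FPKM with vehicle to 826, 906 and 949 FPKM with ONX-0914. The groups were separate, and ONX-0914 3 lay with the other treated libraries. C9 rose by 1.04 on the log2 scale (SE 0.20, adjusted p = 0.0047), or by 1.86 in the scaled values, and passed in each fit without 1 library.

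None of the genes of the 3 chains of C8, which anchors that pore, was called as deposited. C8g, the gamma chain, was at 1081, 1108 and 1431 FPKM with vehicle and at 2295, 1212 and 2214 FPKM with ONX-0914. ONX-0914 3 was at the vehicle level, and the log2 fold change of 0.61 (adjusted p = 0.0923) became 0.91 without that library (adjusted p = 0.00281). C8b, the beta chain, was at 141, 235 and 184 FPKM with vehicle and at 232, 336 and 258 FPKM with ONX-0914 (0.57, adjusted p = 0.0766). C8a, the alpha chain, overlapped as deposited, at 201, 364 and 227 FPKM and at 235, 355 and 212 FPKM (0.03, adjusted p = 0.932). Scaled by median ratio all 3 chains passed, at 1.43, 1.39 and 0.85. C6, which starts the assembly with C5b, was at 100, 135 and 89.8 FPKM and at 72.1, 167 and 74.0 FPKM. It was highest in ONX-0914 3, and without that library it was lower, at -0.54 (adjusted p = 0.0421), against -0.15 with it.

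The complement inhibitors differed too. Serping1, which encodes the C1 inhibitor that also restrains the contact system of clotting, was at 580, 778 and 574 FPKM with vehicle and at 950, 858 and 1047 FPKM with ONX-0914. All treated libraries were above all vehicle libraries, with a log2 change of 0.57 (SE 0.20, adjusted p = 0.0427). Serping1 passed without ONX-0914 3 but not without any other single library (adjusted p up to 0.166). Cfi, the protease that inactivates C3b, was at 505, 546 and 458 FPKM and at 701, 619 and 530 FPKM (0.29, adjusted p = 0.234, and 1.11 in the scaled values with adjusted p = 0.0178). C4bp, its cofactor, was not called, at -0.21 as deposited and 0.61 scaled by median ratio (adjusted p = 0.413 and 0.0708).

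**Figure D3:**
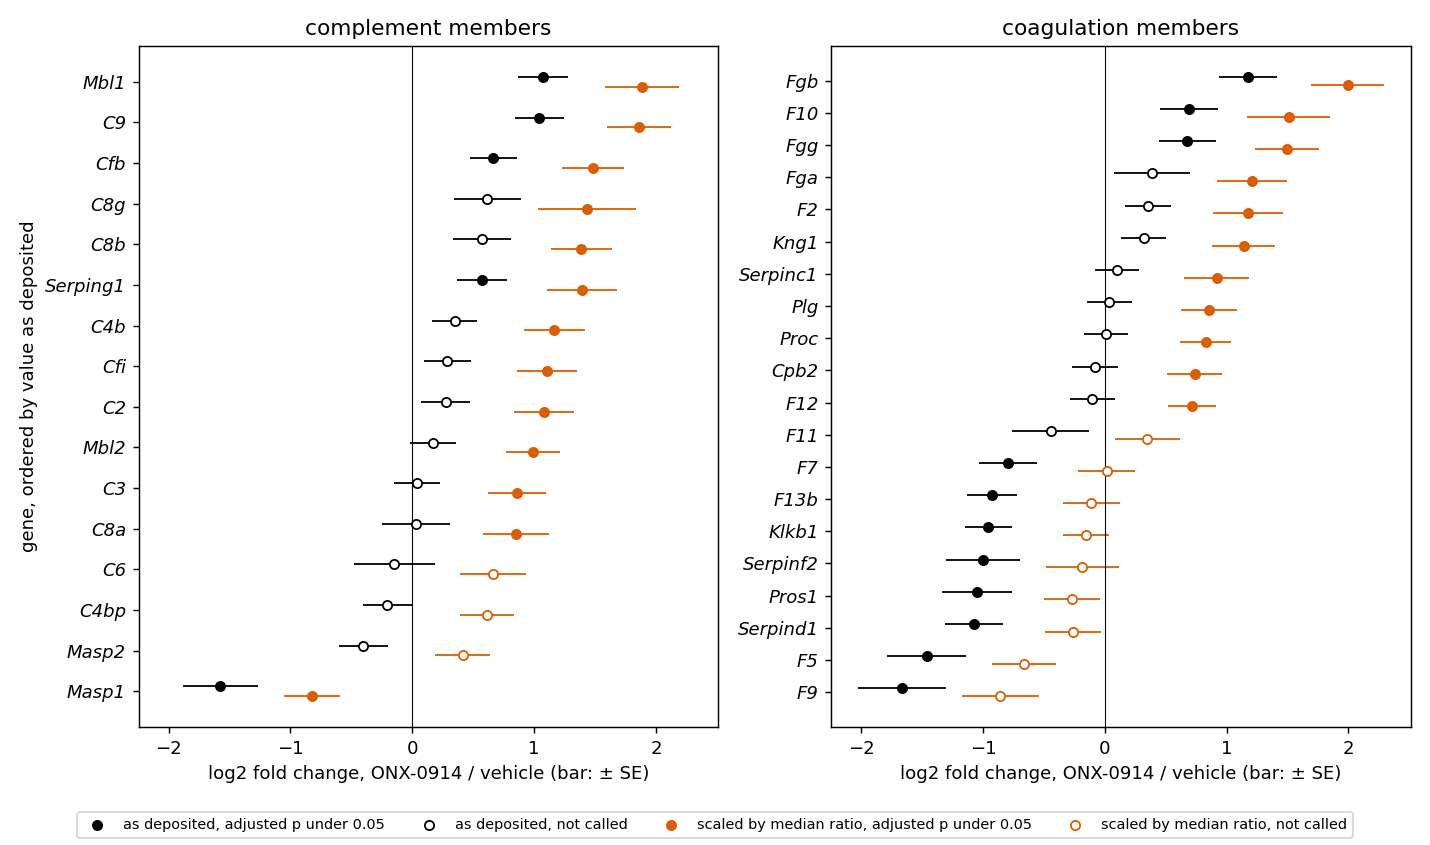
Log2 fold change of ONX-0914 over vehicle with its standard error (x axis) for each member (y axis), as deposited in black and scaled by median ratio in orange, filled where the adjusted p was under 0.05. Scaling shifts the genes to the right by a similar amount and keeps much of their order, from Fgb (1.17 as deposited) to F9 (-1.67).

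Of the fibrinogen genes Fgb and Fgg rose, and Fga was not called as deposited. The chains are encoded side by side on chromosome 3 (Fgg from 83007724, Fga from 83026076 and Fgb from 83040141 to 83049863), and fibrinogen needs all 3. Fgb measured 3978, 3644 and 3315 FPKM with vehicle and 10016, 8927 and 6179 FPKM with ONX-0914. The groups were well apart, with means of 3646 ± 331 and 8374 ± 1977 FPKM (SD, n = 3 each). Fgb rose by 1.17 on the log2 scale (SE 0.24, adjusted p = 0.00561), or by 1.99 in the scaled values. Fgg was at 4239, 3599 and 3483 FPKM and at 5355, 7874 and 5138 FPKM, again without overlap (0.68, SE 0.23, adjusted p = 0.0404). Fgg passed only without ONX-0914 3 or 4 among the fits that leave out 1 library (adjusted p up to 0.137). Fga was at 2709, 2264 and 2090 FPKM with vehicle and at 2356, 5119 and 2385 FPKM with ONX-0914. ONX-0914 3 was above the vehicle range and the other treated libraries were within it. The log2 fold change of Fga was 0.39 (adjusted p = 0.319), and 0.02 without ONX-0914 3. In the scaled values Fga passed (1.21, adjusted p = 0.0207).

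F13b, the carrier subunit of the factor that cross-links fibrin, went the other way. It was at 163, 171 and 169 FPKM with vehicle and at 69.4, 97.3 and 101 FPKM with ONX-0914, below vehicle in each treated library. The log2 fold change was -0.92 (SE 0.20, adjusted p = 0.00755) as deposited, -0.67 after quantile normalization (adjusted p = 0.0372), and -0.11 scaled by median ratio (adjusted p = 0.739).

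In the chain of proteases that leads to thrombin, 1 gene of 5 rose and 3 fell as deposited, and none fell in the scaled values. Over all genes 2.56% were higher and 43.5% lower as deposited. F9, the vitamin K-dependent factor lost in haemophilia B (X chromosome, 59999464 to 60030759), fell as deposited but was not called in the scaled values. Its level was 138, 136 and 134 FPKM with vehicle and 23.2, 77.2 and 41.5 FPKM with ONX-0914. The vehicle libraries were nearly equal, while the treated libraries were spread widely below them. The log2 fold change was -1.67 (SE 0.36, adjusted p = 0.00721) as deposited. In the scaled values F9 was at -0.86 (adjusted p = 0.0711).

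F5, the cofactor of factor Xa (chromosome 1, 164151838 to 164220277), followed a like order of libraries. It measured 75.5, 78.4 and 66.6 FPKM with vehicle and 17.0, 45.3 and 22.5 FPKM with ONX-0914, with a log2 change of -1.46 (SE 0.33, adjusted p = 0.00772), and -0.66 in the scaled values (adjusted p = 0.0863). F7, which starts clotting with tissue factor, was at 93.0, 105 and 92.2 FPKM and at 39.8, 69.2 and 61.6 FPKM (-0.79, adjusted p = 0.0247). Among fits that leave out 1 library F7 passed only without ONX-0914 3, and the scaled values gave 0.02 (adjusted p = 0.962).

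F10, whose product cuts prothrombin, rose, while its neighbour F7 fell as deposited and was at 0.02 in the scaled values. Its level was 345, 366 and 337 FPKM with vehicle and 764, 412 and 570 FPKM with ONX-0914. Even ONX-0914 3, the lowest treated library, was above vehicle. The log2 fold change was 0.69 (SE 0.24, adjusted p = 0.0399), and F10 was higher in each of the 6 scalings, but without 1 library it passed only when ONX-0914 3 was left out (adjusted p from 0.00234 to 0.116). F2, prothrombin, was at 1126, 1141 and 1093 FPKM with vehicle and at 1584, 1252 and 1482 FPKM with ONX-0914. Its groups did not overlap, but it was not called as deposited (0.35, adjusted p = 0.141), whereas the scaled values gave 1.17 (adjusted p = 0.0224).

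The contact system, which links clotting with the release of bradykinin, held 1 fall as deposited, which was not called in the scaled values. Klkb1, plasma prekallikrein, was at 73.8, 68.2 and 68.4 FPKM with vehicle and at 34.8, 40.5 and 32.2 FPKM with ONX-0914. All treated libraries, ONX-0914 3 included, lay well below the lowest vehicle level, with a log2 change of -0.96 (SE 0.19, adjusted p = 0.00546). The scaled values gave -0.15 (adjusted p = 0.565). The Klkb1 locus overlaps the annotated coding gene Gm45753 on the same strand, so its reads, and its ratio to F11, are uncertain. Kng1, the source of bradykinin, was at 1377, 1429 and 1410 FPKM and at 1939, 1744 and 1596 FPKM, without overlap (0.32, adjusted p = 0.174, and 1.14 in the scaled values with adjusted p = 0.0191). F12 overlapped, at 230, 230 and 203 FPKM and at 199, 234 and 186 FPKM, with -0.10 as deposited and 0.71 scaled by median ratio (adjusted p = 0.661 and 0.0317). F11 was not called, at -0.44 and 0.35 (adjusted p = 0.267 and 0.341), but passed without ONX-0914 3 as deposited (-0.76, adjusted p = 0.0204).

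Of the 4 anticoagulant genes 2 fell as deposited, near the background of 43.5% of all genes lower, and none in the scaled values. Serpind1, heparin cofactor II, measured 447, 458 and 461 FPKM with vehicle and 157, 293 and 216 FPKM with ONX-0914. The vehicle libraries differed little and every treated library was below them (log2 fold change -1.08, SE 0.24, adjusted p = 0.0075). Pros1, protein S, which assists activated protein C, was at 29.2, 33.5 and 30.5 FPKM and at 10.3, 22.6 and 12.9 FPKM (-1.05, SE 0.29, adjusted p = 0.0177). Among fits without 1 library Pros1 passed only without ONX-0914 3 (adjusted p up to 0.0675). In the scaled values neither was called, at -0.26 and -0.27.

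Serpinc1, antithrombin, the main plasma inhibitor of thrombin, was at 1546, 1462 and 1397 FPKM with vehicle and at 1722, 1483 and 1525 FPKM with ONX-0914 (0.10, adjusted p = 0.662). Proc, protein C, was at 242, 254 and 227 FPKM and at 255, 265 and 211 FPKM (0.01, adjusted p = 0.967). Both overlapped between groups as deposited and both were higher scaled by median ratio, at 0.92 and 0.83 (adjusted p = 0.0358 and 0.025), though not after quantile normalization.

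Of the fibrinolysis genes the plasmin inhibitor fell as deposited and was not called in the scaled values. Serpinf2, alpha 2-antiplasmin, was at 472, 535 and 474 FPKM with vehicle and at 145, 354 and 287 FPKM with ONX-0914, with ONX-0914 1 lowest and no overlap. On the log2 scale this was -1.002 (SE 0.31, adjusted p = 0.0258) as deposited and -0.18 scaled by median ratio (adjusted p = 0.664). It passed without ONX-0914 1 or 3 but not without any other single library (adjusted p up to 0.0793). Plg, plasminogen, stayed within the vehicle range in 2 of 3 treated libraries, at 1041, 1147 and 949 FPKM and at 1028, 1193 and 1000 FPKM (0.04, adjusted p = 0.876). Cpb2, the carboxypeptidase that protects fibrin, was at 474, 509 and 430 FPKM and at 382, 489 and 469 FPKM (-0.08, adjusted p = 0.738). Both were higher scaled by median ratio, at 0.86 and 0.74 (adjusted p = 0.0288 and 0.0428).

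As deposited the median gene lay at -0.64, and median-ratio scaling lifts all members by about that much or more, so by construction it favours rises over falls. Removal of the length trend also takes out the shift of the median gene, and so favours rises in the same way. Of the 7 members higher as deposited, all 7 were also higher in the scaled values and after removal of the length trend, and 4 (Mbl1, C9, Fgb and F10) were higher in all 6 scalings. Of the 9 lower as deposited, 1 (Masp1) was lower in all 6. F9 and F5 were lower in 3 of the 6, and F13b, Klkb1 and Serpind1 in 2 of the 6.

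Ratios between related members within a library do not depend on any factor common to that library, but a trend with transcript length can still move them. In 5 of 9 pairs, chosen after the values were seen as neighbours or as subunits or paralogs, the treated and vehicle libraries did not overlap. With 3 libraries against 3 the smallest exact two-sided permutation p is 0.1, which each of these 5 reached (0.18 adjusted over the 9 pairs), so the design cannot pass a threshold of 0.05. F10 to F7, 1498 bp apart on chromosome 8, had ratios of 3.71, 3.49 and 3.65 with vehicle and of 19.2, 5.95 and 9.26 with ONX-0914. The ratio of Fgb to Fga was 1.47, 1.61 and 1.59 with vehicle and 4.25, 1.74 and 2.59 with ONX-0914. In both pairs the vehicle libraries were nearly equal and ONX-0914 3 was the treated library closest to them.

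The ratio of Masp2 to Masp1 was 6.06, 7.31 and 5.46 with vehicle and 20.2, 9.76 and 18.3 with ONX-0914. Mbl1 to Mbl2 went from 0.70, 0.72 and 0.85 to 1.58, 1.05 and 1.67, so the A lectin transcript was the lower of the pair in each vehicle library and the higher in each treated one. C8b to C8a went from 0.70, 0.64 and 0.81 to 0.99, 0.94 and 1.22. With the length trend removed, the gap in log2 fold change narrowed for C8b to C8a and Masp2 to Masp1. It widened for F10 to F7, Fgb to Fga and Mbl1 to Mbl2. Ratios of Fgg to Fga, C8g to C8a, Cfb to C2 and F11 to Klkb1 overlapped between groups (exact permutation p from 0.2 to 0.4, n = 3 each).

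**Figure D4:**
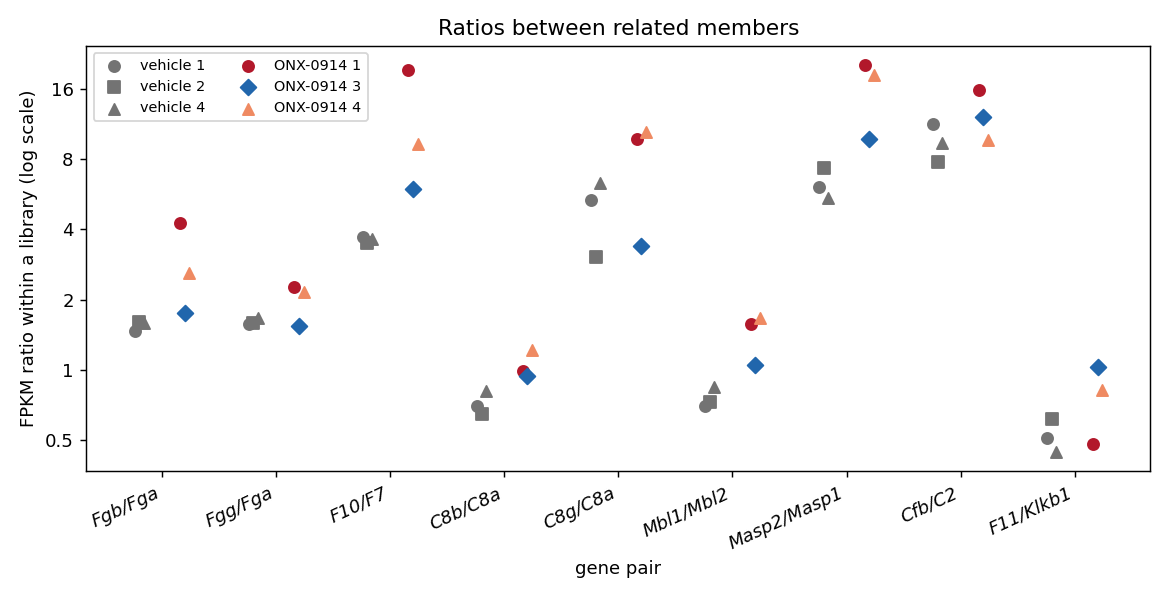
Ratio of the FPKM values of 2 members within a library (y axis, log scale) for 9 pairs (x axis), 1 point per library, grey for vehicle and coloured for ONX-0914. Treated points lie above all vehicle points for Fgb/Fga, F10/F7, C8b/C8a, Mbl1/Mbl2 and Masp2/Masp1, and overlap them in the other pairs.

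Length and level of the transcripts varied among the members. The longest coding transcripts in GENCODE M21 ran from 1089 to 5379 bp for complement (median 2696) and from 1477 to 7430 bp for coagulation (median 2317). Across the 36 genes the log2 fold change had a Pearson correlation of -0.37 with log2 length and of 0.64 with log2 vehicle FPKM, a description over genes that share libraries. With the length trend removed these were -0.10 and 0.61. The abundant members, such as the fibrinogen chains, thus lay higher than scarce ones such as F9, F5, Pros1 and Masp1. Of the 6 longest members C3, C4b and Serpinc1 lay above the medians of genes of like length, and F5 and Masp1 lay below them. Klkb1, at -0.96, lay near the median of its group (-0.92 at a median length of 5280 bp). With the length trend removed it was at -0.05. The part of length or level in these results was not tested further.

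**Figure D5:**
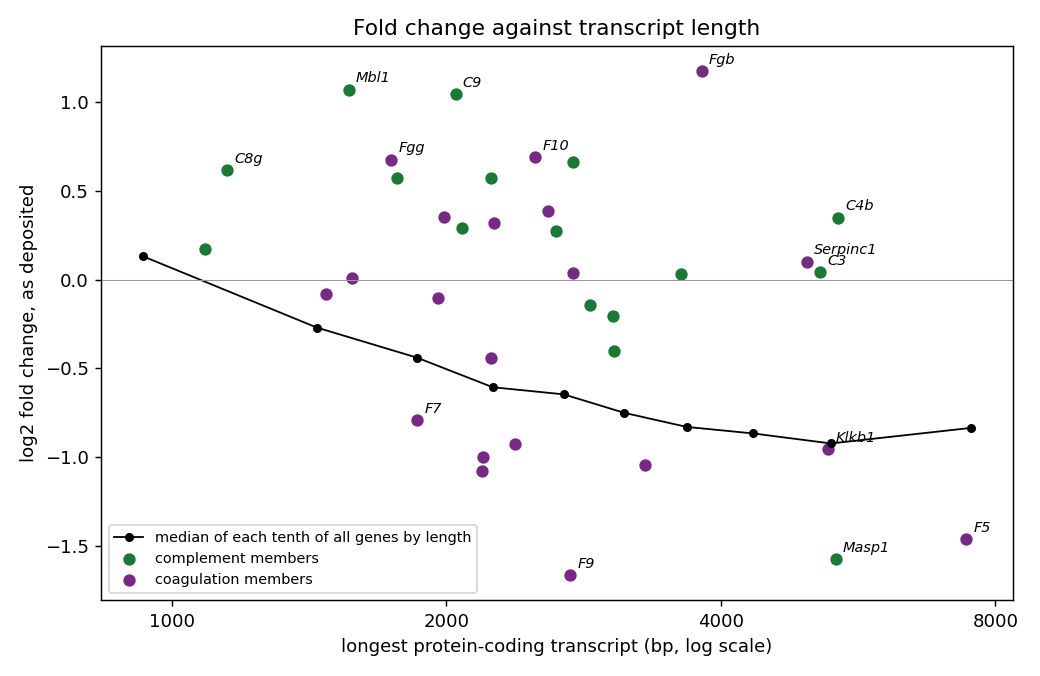
Log2 fold change as deposited (y axis) against the longest protein-coding transcript (x axis, log scale) for complement and coagulation members, with the medians of 10 equal groups of all genes by length as a black line. The line goes from 0.13 at the shortest to -0.84 at the longest, and Fgb, Mbl1 and C9 lie above it while F9, Masp1 and F5 lie below.

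The share of the 36 transcripts in the summed FPKM was 2.64%, 2.56% and 2.23% with vehicle and 3.17%, 3.83% and 2.56% with ONX-0914. These shares overlapped, with ONX-0914 4 below vehicle 1. The coagulation genes summed to 18835, 17673 and 16460 FPKM with vehicle and to 26111, 30033 and 21542 FPKM with ONX-0914. For complement these sums were 7338, 8068 and 7448 FPKM and 10252, 9826 and 10437 FPKM. Sums of both branches were higher in each treated library than in each vehicle library. The summed FPKM of all genes was also larger in ONX-0914 1 and 4 (1146952 and 1247789) than in any vehicle library (at most 1074027). As a share of the library, the coagulation sum of ONX-0914 4 lay below those of vehicle 1 and vehicle 2, while the complement sums stayed apart. Without the fibrinogen chains the other 17 coagulation genes summed to 7909, 8166 and 7572 FPKM with vehicle and to 8385, 8113 and 7841 FPKM with ONX-0914, which overlapped.

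Other genes of both cascades were taken from a separate list. Of 32 other complement genes 23 were tested, and 1 rose and 12 fell (3 and 3 in the scaled values). The background was 2.56% higher and 43.5% lower as deposited, and 14.3% and 13.7% in the scaled values. Vtn, vitronectin, which blocks the terminal pore, rose from 2067, 2327 and 2033 FPKM to 4093, 3337 and 3851 FPKM (log2 fold change 0.81, adjusted p = 0.0103). The larger falls included Colec10, a collectin (-2.06), Cd55, a brake on convertases (-1.90), and Vsig4, the complement receptor of Kupffer cells (-1.79), and these 3 also fell scaled by median ratio (-1.52, -1.39 and -0.99). Cpn2, a subunit of the carboxypeptidase that trims anaphylatoxins, fell as deposited (-1.59) and was not called scaled (-0.80, adjusted p = 0.0535).

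Of 31 other coagulation genes 24 were tested, and 3 rose (Serpina10, Fgl1 and Itih1) and 9 fell (5 and 5 in the scaled values). The background was 2.56% higher and 43.5% lower as deposited, and 14.3% and 13.7% in the scaled values. Serpina10, the protein Z-dependent inhibitor of factor Xa, had the largest rise of them, from 201, 305 and 232 FPKM with vehicle to 985, 719 and 986 FPKM with ONX-0914 (log2 fold change 1.87, adjusted p = 0.00137). Proz, which encodes its cofactor protein Z, fell as deposited (-1.35) but was not called scaled by median ratio (-0.54, adjusted p = 0.13). Lman1 and Mcfd2 encode the cargo receptor that carries factors V and VIII out of the endoplasmic reticulum, and fell as F5 did. Lman1 was at 48.6, 47.3 and 43.6 FPKM with vehicle and at 7.38, 22.6 and 9.62 FPKM with ONX-0914 (-1.89, or -1.11 scaled by median ratio). Mcfd2 was at -1.98, and at -1.17 scaled (adjusted p = 0.0102 and 0.0691). F8, which endothelial cells make, fell from 2.69, 3.40 and 3.38 FPKM to 0.32, 0.65 and 0.28 FPKM, and Plau, urokinase, also fell (-1.56 and -1.63, or -1.14 and -1.16 scaled).

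Of 24 genes of other secreted plasma proteins 7 rose and 1 (Apob) fell, with a median log2 fold change of 0.27, beside 0.28 for complement (13 and 0, and 1.09, in the scaled values). Among all genes tested 2.56% were higher and 43.5% lower as deposited, and 14.3% and 13.7% in the scaled values. The secreted protein genes with the largest changes were Hpx, hemopexin (1.82), Fetub, fetuin B (1.35), Hp, haptoglobin (1.35), and Orm1, orosomucoid (1.09), with adjusted p from 0.00211 to 0.0177. Of 24 genes of factors and receptors known to drive hepatocyte secreted genes, none rose and 11 fell, a share near the background of 43.5% lower, with a median of -0.93 (1 and 1, and -0.27, in the scaled values). Hnf4a was at 58.5, 51.7 and 68.6 FPKM with vehicle and at 6.26, 40.7 and 5.94 FPKM with ONX-0914, so ONX-0914 3 was again nearest to vehicle (-2.23, adjusted p = 0.0154, and -1.47 in the scaled values with adjusted p = 0.0675). Il6st, the shared receptor chain of interleukin 6, fell in both (-2.18 and -1.52). Atf6, a sensor of endoplasmic reticulum stress, and Il6ra fell as deposited (-1.55 and -1.52) but were not called in the scaled values (-0.98 and -0.95). Psmb8, the target of the drug, was not called (0.12, adjusted p = 0.688).

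Markers of other liver cells moved with treatment, beside a background of 43.5% of all genes lower as deposited and 13.7% in the scaled values. All 11 hepatocyte markers were expressed, summing to between 91777 and 94721 FPKM with vehicle and between 67258 and 100537 FPKM with ONX-0914, and 1 rose (Apoa1) and 3 fell (Cps1, Glul and Ass1). In the scaled values 2 rose and none fell. The 11 endothelial markers all fell as deposited and 9 of them in the scaled values, and their sum went from between 171 and 178 FPKM to between 25.6 and 47.6 FPKM. The 9 Kupffer cell and macrophage markers (6 fell, and 3 in the scaled values) summed to between 795 and 1319 FPKM with vehicle and between 409 and 703 FPKM with ONX-0914, and the 8 stellate cell markers (6 fell, and 3 in the scaled values) to between 256 and 329 FPKM and between 59.7 and 130 FPKM. Neutrophil markers ranged from 294 to 1775 FPKM with vehicle and from 179 to 4420 FPKM with ONX-0914, and none of 6 tested was called in the fit of all libraries, with a median log2 fold change of 0.89. Without ONX-0914 3, 4 of the 6 were higher with a median of 2.07, and ONX-0914 3 against vehicle had a median of -1.31, so that library stood apart in these markers. Platelet markers summed to at most 29.5 FPKM in any library, lymphocyte markers to at most 9.21 FPKM and cholangiocyte markers to at most 123 FPKM, and no listed marker was at 0 throughout. The part of these cells in the results on complement and coagulation genes was not tested.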

How the data were processed

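Liver RNA of 6 libraries was measured, 3 per group. Per the labels' protocols, mRNA was enriched before library preparation, and the series' design text gives paired reads of 150 bases. Tools named in the submitters' processing notes, with no roles, are FastQC (0.11.5), edgeR, featureCounts (1.6.0), HISAT2 (2.0.1) and cutadapt (1.11), with builds GRCm38 and mm10. The matrix deposited by the authors holds FPKM values, a unit taken from their sums and decimals and the series record, with no statement of whether reads or fragments were counted. Its annotation and counting strand are not given in the sources used here. Besides Masp1, coding genes on the opposite strand overlap Masp2, C2, C8a, C8g, Serpinc1, Serpind1 and Plg, so their reads are uncertain too.

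Genes above 1 FPKM in at least 3 libraries were fitted on log2(FPKM + 1) in limma 3.58.1 (R 4.3.3) with a variance trend and no replicate block, the test planned for FPKM. P-values were adjusted over all 10743 genes by the Benjamini-Hochberg method. Changes of low genes are understated on this scale. The scripts were tested on simulated data. Positions and lengths (known for 97.6% of tested genes) came from GENCODE M21. To remove the length trend, each library's log2 deviation from the vehicle mean was smoothed by loess over log2 length. The curve was subtracted, which also takes out the library's overall shift.

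Members and gene lists were chosen with earlier results of these data known. Values per library are given for members called as deposited or scaled by median ratio, for the 3 largest changes per branch, and for C6. From the other lists up to 4 called genes with the largest change were named, with Psmb8 and Hnf4a. C6, Vtn, Fgl1, Itih1, Proz, F8, Apob and the hepatocyte markers named were added after their values were seen. Alternatives comprised pseudocounts, filters, scalings, a replicate block and left-out libraries.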

Additional observations from a re-analysis of the deposited data

How the results depend on the processing

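Absolute depth is unknown, so counting error could not be given. The count tests planned for raw counts (edgeR and DESeq2) were not run on FPKM. Fits of ONX-0914 3 alone, the median ratio over genes above 1 and scaled fits without ONX-0914 3 were chosen after seeing the data. Pseudocounts of 0.1 and 0.5, a mean of at least 1 and a fit with no variance trend left each count within 1.5 times. Without a filter 1 coagulation gene was higher. Causes of the changes listed here were not tested, beyond what each setting does by construction.

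Calls are given as higher and lower. Over all genes they numbered 1538 and 1471 with median-ratio scaling, 1319 and 1654 with upper-quartile scaling, 1052 and 1396 after quantile normalization, 993 and 1239 without the length trend, 1036 and 2007 by median ratio over genes above 1, and 110 and 3062 where the log2 change also had to reach 1 in size. For ONX-0914 3 alone 2992 genes were lower, and with its values scaled 1015 were higher and 1114 lower. Scaled and without ONX-0914 3 they were 2899 and 2758.

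In the same order, complement genes higher were 12, 11, 2, 11, 10 and 2, then 10 for scaled ONX-0914 3 alone (0 lower) and 13 scaled without it. Coagulation genes higher were 11 (median ratio), 10 (upper quartile), 8 (length trend), 8 (genes above 1), 6 (scaled ONX-0914 3 alone), 11 (scaled without it) and 1 (fold limit). Those lower were 0, 0, 0, 2, 0, 2 and 5, with 5 by quantile and 5 for ONX-0914 3 alone. Median log2 fold changes of complement and coagulation were 1.09 and 0.73 (median ratio), 1.03 and 0.66 (upper quartile), 0.90 and 0.28 (length trend), 0.88 and 0.51 (genes above 1), 0.83 and 0.56 (scaled ONX-0914 3 alone) and 1.26 and 0.81 (scaled without it). ONX-0914 3 alone, as deposited, gave 0.071 for coagulation. The difference of medians was 0.62 without the length trend and 0.27 for ONX-0914 3 alone.

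Leaving out 1 library at a time, higher calls ranged from 92 to 740 and lower calls from 2590 to 6514 over all genes. Complement genes ranged from 2 to 5 higher and 1 to 2 lower, and coagulation genes from 1 to 4 higher and 5 to 9 lower. Medians ranged from 0.23 to 0.37 and from -0.17 to -0.05, and their difference from 0.32 to 0.45. The highest counts were all reached without ONX-0914 3. Signs changed for C6 (-0.54 to 0.060), Cpb2 (-0.15 to 0.027), Proc (-0.053 to 0.11), C3 (-0.036 to 0.14), C8a (-0.19 to 0.29), Plg (-0.040 to 0.11) and Psmb8 (-0.047 to 0.26).

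The groups share replicate numbers 1 and 4 only, whose deviations from the group means correlated at 0.0011 and 0.13, and no label ties them, so the numbers were not taken to pair the libraries. With the replicate block 604 genes were higher, Fgg was not called (0.45, adjusted p = 0.114), C8g (0.86, adjusted p = 0.0102) and C8b (0.60, adjusted p = 0.0380) were higher, the difference of medians was 0.50, and C3 (-0.0068), Fga (-0.0056) and Proc (-0.014) changed sign.

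Other reversed signs were as follows. By median ratio Masp2 was at 0.41, C6 0.66, C4bp 0.61, F7 0.017, F11 0.35, F12 0.71 and Cpb2 0.74. By upper quartile Masp2 was at 0.35, C6 0.60, C4bp 0.55, F11 0.29, F12 0.65 and Cpb2 0.68. Without the length trend Masp2 was at 0.35, C6 0.58, C4bp 0.55, F11 0.13, F12 0.39 and Cpb2 0.21. By genes above 1 Masp2 was at 0.20, C6 0.45, C4bp 0.39, F11 0.14, F12 0.50 and Cpb2 0.52. After quantile normalization C3 was at -0.19, C6 0.15, F11 0.11, F12 0.031, Serpinc1 -0.15 and Plg -0.14. ONX-0914 3 alone gave C6 0.64, C4bp 0.063, F11 0.19, F12 0.085, Cpb2 0.057 and Psmb8 -0.16. Scaled, it gave Masp2 0.19, C6 1.13, C4bp 0.55, F7 0.0097, F11 0.66, F12 0.57, Pros1 0.032, Serpinf2 0.016 and Cpb2 0.55. Scaled without ONX-0914 3, Masp2 was at 0.53, C6 0.43, C4bp 0.64, F7 0.020, F11 0.19, F12 0.78 and Cpb2 0.83.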
